A study of Mus musculus with 12 samples.

Results

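The matrix of the kidney interstitium was followed through 45 genes, listed by name, that encode interstitial collagens, elastic fibre proteins, glycoproteins, proteoglycans, crosslinking enzymes, proteases and their inhibitors, TGF-beta ligands and the receptors and filament of mesenchymal cells. A gene was taken where a probe set carried its symbol alone on the platform table, with the highest mean over the arrays if there were several, which gave 43 of the 45 genes out of 19938 genes measured. Fbn1 had no probe set under its symbol, and the probe set of Loxl2 also carries the symbol Gm21451, so neither was counted. Whole kidneys of 3-week-old mice were compared in 4 groups of 3 Affymetrix arrays each, and every array held RNA pooled from 3 mice. PpargΔ/Δ mice, which carry a deletion of the nuclear receptor gene Pparg, and their controls were of mixed C57BL6/SV129 strain. AZIP mice, named for a transgene product that blocks the transcription factors of fat-cell formation, and their FVB controls were of strain FVB and keep Pparg. The way Pparg was deleted, the promoter of the transgene, the exact genotype of the controls and the sex of the mice are named in none of the labels. No agent was given to any group per the labels. Pparg itself read 8.0, 8.19 and 8.01 in PpargΔ/Δ kidneys, against 7.90, 7.97 and 8.02 in control kidneys. That is a difference of 0.11 ± 0.058 (limma adjusted p = 0.339). The bases removed in PpargΔ/Δ mice and those covered by the probes are unknown here, so this reading checks nothing about the labels. The 12 array medians ranged between 7.17 and 7.21, and 9 of 10 genes that mark nephron segments were measured, with means over the arrays of 8.86 for the podocyte gene Nphs1 to 13.18 for the proximal tubule gene Slc34a1.

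Interstitial fibroblasts and pericytes secrete fibrillar collagens, which are trimmed, assembled and crosslinked by lysyl oxidases into cables that resist tension. Elastin and microfibrils give recoil, small leucine-rich proteoglycans space the fibrils, and glycoproteins such as fibronectin and tenascin link cells to the network. In the young kidney this matrix is laid down as the organ grows, and in the injured kidney TGF-beta is a main driver of its accumulation.

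Most of the 43 measured genes read higher in the kidneys of both mutant lines than in their controls, by small amounts. A further list of 33 interstitial matrix genes had smaller medians, 0.017 in PpargΔ/Δ and 0.10 in AZIP kidneys. Of those 33, 19 lay above 0 in PpargΔ/Δ and 26 in AZIP kidneys. In PpargΔ/Δ kidneys 13 of the 43 genes rose and 0 fell, where 2.67% of all genes rose and 2.62% fell. In AZIP kidneys 8 of the 43 rose and 0 fell, where 1.3% of all genes rose and 1.13% fell. Rose, fell and passed stand for an adjusted p under 0.05 by limma, with the Benjamini-Hochberg correction over all genes measured. Values are log2 RMA values in array order, differences are mutant minus control on the log2 scale, ± gives the SE from limma, and n is 3 arrays per group throughout. At an unadjusted p under 0.05, which 20.4% of all genes had in PpargΔ/Δ and 16.4% in AZIP kidneys, 27 members stood in PpargΔ/Δ and 28 in AZIP kidneys. Counts at an unadjusted p further on are to be read against those shares. The members below their controls at such a p numbered 1 in PpargΔ/Δ and 0 in AZIP kidneys. Of the further 33 genes 9 lay above and 4 below at such a p in PpargΔ/Δ kidneys, and 5 above and 5 below in AZIP kidneys. The median difference of the 43 genes was 0.23 in PpargΔ/Δ and 0.22 in AZIP kidneys, beside medians of -0.0089 and 0.0028 over all genes. The difference was above 0 for 39 of the 43 genes in PpargΔ/Δ kidneys, against 46.8% of all genes, and for 38 in AZIP kidneys, against 51.1% of all genes. All 3 PpargΔ/Δ arrays lay above all 3 control arrays for 25 of the 43 genes, against 12.9% of all genes, and all 3 AZIP arrays above all 3 FVB control arrays for 29, against 11% of all genes. The genes were listed with earlier results of these data known. An excess over all genes may therefore be built in by the choice, and it was not tested. In whole-kidney RNA a larger number of matrix-making cells and more RNA per cell cannot be told apart, and nothing in the labels says whether the pools came from separate litters.

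**Figure D1:**
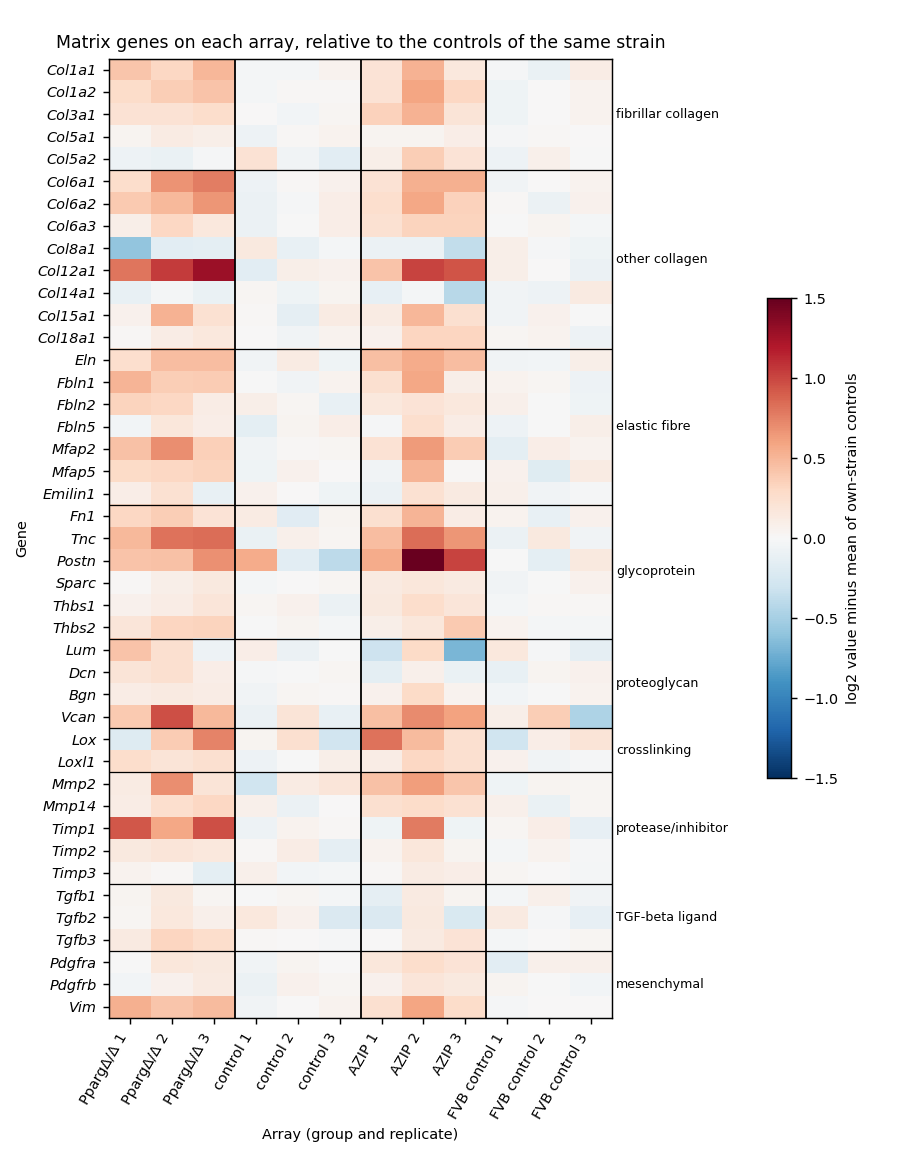
Each row is 1 of the 43 matrix genes and each column 1 array; colour gives the log2 value minus the mean of the controls of the same strain, and black lines part the classes and the groups. Red, for values above the controls, fills most rows of the PpargΔ/Δ and AZIP columns, darkest for Col12a1, Tnc, Postn, Vcan and Timp1.

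The counts rested on few arrays. In PpargΔ/Δ kidneys 7 members rose without PpargΔ/Δ 2, 7 without PpargΔ/Δ 3, 3 without control 1, 5 without control 2 and 6 without control 3. Over all genes the number that passed fell as well in these runs, from 1055 to between 330 and 627. In AZIP kidneys 13 rose without AZIP 1, 1 without AZIP 2, 3 without AZIP 3, 0 without FVB control 1, 2 without FVB control 2, 2 without FVB control 3 and 4 without control 2, which enters only the shared variance. Over all genes the AZIP number went from 485 to 569 without AZIP 1, and to between 62 and 333 in the other runs named. Once all arrays had been brought to equal medians 5 members rose, and 529 of all genes passed. With only the arrays of the AZIP comparison in the model 3 members rose, and 162 of all genes passed. Col1a2, Col3a1, Col6a2, Col6a3, Col12a1 and Vim lost the AZIP call with only those arrays (limma adjusted p from 0.058 to 0.119), as Col6a1 lost the PpargΔ/Δ call with only its own (0.0568). With equal medians the AZIP calls lost were those of Col1a2, Col6a2 and Vim (limma adjusted p from 0.051 to 0.0585). The medians over the members moved less, and stayed between 0.20 and 0.24 in PpargΔ/Δ and between 0.18 and 0.28 in AZIP kidneys with each array left out.

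AZIP array 2 stood apart from the other AZIP arrays in these genes. It was the highest of the 3 AZIP arrays for 38 of the 43 genes, where it was the highest for 32.4% of all genes. AZIP 1 was the lowest for 30 of the 43, against 32.7% of all genes. The median of the 43 genes lay 0.13, 0.32 and 0.19 above the FVB control mean on AZIP 1, 2 and 3. AZIP 2 was also the highest of its group for 11 of 12 macrophage genes, 13 of 19 TGF-beta signalling genes and 7 of 10 urothelial genes. The same held for 7 of 12 smooth muscle genes and 9 of 16 fibroblast and pericyte genes. It stood out less in the other interstitial matrix list, being the highest for 13 of 33 genes (39.4%). Nor did it stand out in some other lists, with 2 of 10 endothelial, 3 of 9 fat-cell and 1 of 4 mesangial genes. Whether the genes of any list have a part in the matrix values of that array was not tested. Among the PpargΔ/Δ arrays the median of the 43 genes lay 0.14, 0.31 and 0.21 above the control mean. PpargΔ/Δ 1 was the lowest for 29 of the 43, where it was the lowest for 39.7% of all genes. For macrophage genes the order was another, with PpargΔ/Δ 1 the highest of its group for 10 of 12, against 33.2% of all genes.

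**Figure D2:**
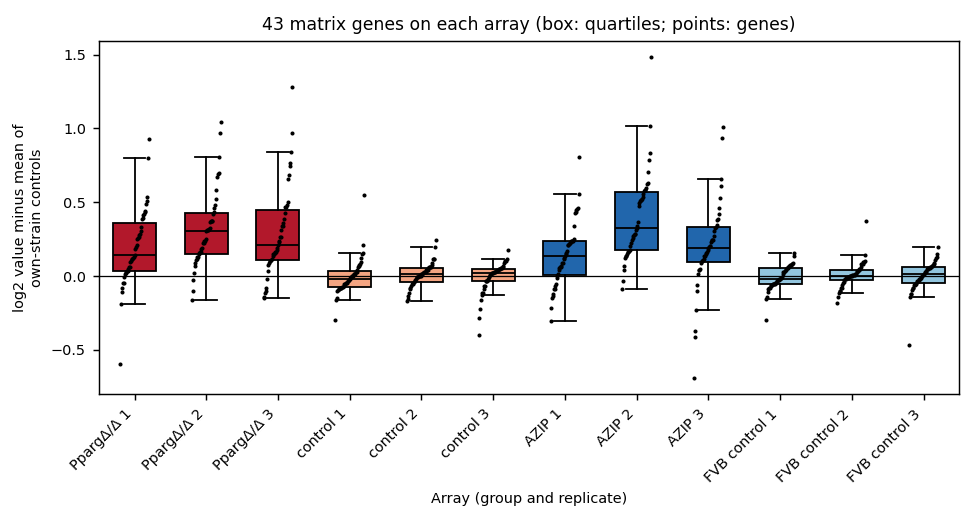
For each array the points are the 43 matrix genes, as log2 value minus the mean of the controls of the same strain, with the box at the quartiles and the line at the median. The medians of the 6 mutant arrays lie between 0.13 and 0.32, above those of the 6 control arrays, and AZIP 2 has the highest.

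The members that rose in both lines were Col1a2, Col6a2, Col12a1, Eln, Tnc and Vim, 6 of 43, where 0.717% of all genes rose in both. The 2 comparisons share no array, but 1 variance per gene was fitted over all 12. RefSeq promoter entries were found for 29 of the 45 listed genes, among them Col1a2, Col6a2, Tnc and Vim. The 250 bases before the annotated start of these are printed, because the genes moved together. They are in GRCm38.p6, from the first entry of each gene, read 5′ to 3′ along the gene. Capitals mark the GC box GGGCGG, the CCAAT box CCAAT, the TATA box TATAAA and the AP-1 site TGANTCA on either strand.
Vim (chr2:13574061-13574310, plus strand): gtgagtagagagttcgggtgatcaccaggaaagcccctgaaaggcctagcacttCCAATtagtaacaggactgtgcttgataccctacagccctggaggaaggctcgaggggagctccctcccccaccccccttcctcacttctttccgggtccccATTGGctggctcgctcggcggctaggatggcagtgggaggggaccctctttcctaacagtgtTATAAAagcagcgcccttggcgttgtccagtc
Tnc (chr4:64047016-64047265, minus strand): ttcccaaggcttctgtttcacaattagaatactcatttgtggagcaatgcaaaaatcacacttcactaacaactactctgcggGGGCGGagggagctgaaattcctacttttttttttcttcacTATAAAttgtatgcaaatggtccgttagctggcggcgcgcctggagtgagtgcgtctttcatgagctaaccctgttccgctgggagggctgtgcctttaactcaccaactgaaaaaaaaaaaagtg
Col1a2 (chr6:4505368-4505617, plus strand): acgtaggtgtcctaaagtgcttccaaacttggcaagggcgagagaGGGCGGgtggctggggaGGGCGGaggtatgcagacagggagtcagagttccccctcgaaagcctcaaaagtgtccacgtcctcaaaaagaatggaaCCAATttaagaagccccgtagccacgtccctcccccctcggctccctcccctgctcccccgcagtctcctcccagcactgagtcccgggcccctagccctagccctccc
Col6a2 (chr10:76623405-76623654, minus strand): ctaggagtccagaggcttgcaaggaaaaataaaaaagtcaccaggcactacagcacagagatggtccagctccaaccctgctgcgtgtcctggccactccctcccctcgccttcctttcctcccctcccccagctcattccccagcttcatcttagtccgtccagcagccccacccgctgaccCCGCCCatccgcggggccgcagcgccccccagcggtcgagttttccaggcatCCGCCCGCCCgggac
Col1a2 held 2 GC boxes and a CCAAT box, Vim held 2 CCAAT boxes and a TATA box, Tnc a GC box and a TATA box, and Col6a2 held 3 GC boxes, of which 2 overlap. Over all 32841 windows of this length the GC box was in 32.7%, against 20 of 36 windows of the listed genes, and the CCAAT box was in 33.9%, against 11 of 36. The TATA box was in 12.4% of all windows and in 7 of the 36, and the AP-1 site in 6.75% and in 1, that of Col6a1. The SMAD element GTCTAGAC, the PPAR direct repeat, AGGTCA and again AGGTCA 1 base apart, and the CArG box were in 0.167%, 0.0335% and 1.47% of all windows and in 0 of the 36. A match is a run of letters and not a bound site.

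**Figure D3:**
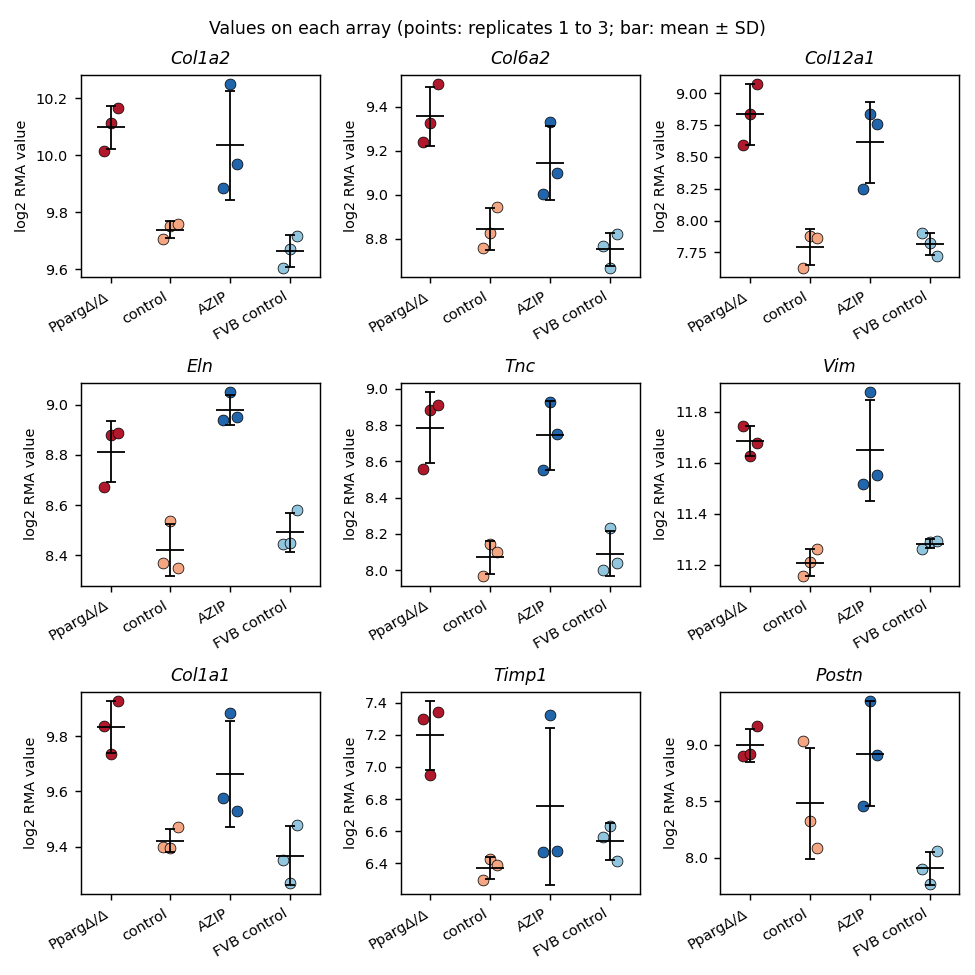
Each panel shows 1 gene, with log2 RMA values of the 12 arrays as points and the mean ± SD of each group as a bar. Col1a2, Col6a2, Col12a1, Eln, Tnc and Vim have no overlap between mutant and control arrays in either line, whereas Timp1 in the AZIP group and Postn in the control group each have 1 array far above the other 2.

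Fibrillar collagens form the load-bearing fibrils of the interstitium. Of the 5 measured, 2 rose in PpargΔ/Δ and 2 in AZIP kidneys, with class medians of 0.23 and 0.29. Col1a1 encodes the alpha 1 chain of type I collagen and read 9.84, 9.74 and 9.93 in PpargΔ/Δ kidneys, against 9.40, 9.40 and 9.47 in control kidneys. The groups did not overlap, and the difference was 0.41 ± 0.09 (adjusted p = 0.0244), a 1.33-fold change. In the other line Col1a1 read 9.58, 9.88 and 9.53 in AZIP kidneys, against 9.35, 9.27 and 9.48 in FVB control kidneys, again without overlap, and 0.29 ± 0.09 did not pass (adjusted p = 0.115). Its partner chain Col1a2 read 10.02, 10.11 and 10.17 in PpargΔ/Δ kidneys, against 9.71, 9.75 and 9.76 in control kidneys. This was a rise of 0.36 ± 0.081 (adjusted p = 0.0284). Col1a2 in the AZIP comparison read 9.89, 10.25 and 9.97 in AZIP kidneys, against 9.61, 9.67 and 9.72 in FVB control kidneys. It rose by 0.37 ± 0.081 (adjusted p = 0.0391). Col3a1, the type III collagen that accompanies type I in compliant tissue, read 9.63, 9.81 and 9.48 in AZIP kidneys, against 9.23, 9.29 and 9.34 in FVB control kidneys. The rise was 0.35 ± 0.071 (adjusted p = 0.0288). Its PpargΔ/Δ arrays, at 9.49, 9.49 and 9.54, also lay above the control arrays, at 9.28, 9.24 and 9.31, with a difference of 0.23 ± 0.071 (adjusted p = 0.0825). The type V collagens that regulate fibril diameter did not pass in either line: Col5a1 was at 0.085 in PpargΔ/Δ and 0.061 in AZIP kidneys, and Col5a2 at -0.066 in PpargΔ/Δ and 0.22 in AZIP kidneys. Col1a1 lost the PpargΔ/Δ call without PpargΔ/Δ 3 or control 1, 2 or 3 (limma adjusted p at most 0.0893). Col1a2 lost the PpargΔ/Δ call without PpargΔ/Δ 2 or 3 or control 1, 2 or 3 (limma adjusted p at most 0.0987). Col1a2 lost the AZIP call without PpargΔ/Δ 2, control 1, 2 or 3, AZIP 2 or 3 or FVB control 1, 2 or 3 (limma adjusted p at most 0.158). Col3a1 lost the AZIP call without AZIP 2 or FVB control 1, 2 or 3 (limma adjusted p at most 0.127). Col3a1 reached the threshold in PpargΔ/Δ kidneys without AZIP 2 or 3 (limma adjusted p down to 0.0308). Col3a1 also passed in PpargΔ/Δ kidneys with only the arrays compared (0.0487) and with array weights (0.045) (limma adjusted p).

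Col12a1, a collagen that binds the surface of type I fibrils, had the largest difference of the 43 genes in PpargΔ/Δ kidneys. It read 8.59, 8.84 and 9.07 in PpargΔ/Δ kidneys, against 7.63, 7.88 and 7.86 in control kidneys, and the lowest PpargΔ/Δ array stood clear of the highest control. The rise was 1.04 ± 0.15 (adjusted p = 0.00355), 2.06-fold. In the AZIP comparison it read 8.25, 8.83 and 8.76 in AZIP kidneys, against 7.90, 7.82 and 7.73 in FVB control kidneys. This was a rise of 0.80 ± 0.15 (adjusted p = 0.0215), 1.74-fold. Type VI collagen forms beaded filaments around cells from 3 chains. Its chain gene Col6a2 read 9.24, 9.33 and 9.50 in PpargΔ/Δ kidneys, against 8.76, 8.83 and 8.95 in control kidneys. It rose by 0.51 ± 0.091 (adjusted p = 0.0103). Col6a2 in the AZIP comparison read 9.01, 9.33 and 9.10 in AZIP kidneys, against 8.77, 8.67 and 8.82 in FVB control kidneys. The rise was 0.39 ± 0.091 (adjusted p = 0.046). Col6a1, its neighbour on chromosome 10, read 9.56, 9.97 and 10.06 in PpargΔ/Δ kidneys, against 9.22, 9.31 and 9.36 in control kidneys. This was a rise of 0.57 ± 0.12 (adjusted p = 0.02). The AZIP arrays, at 9.44, 9.77 and 9.76, lay above the FVB control arrays, at 9.18, 9.23 and 9.28, and 0.43 ± 0.12 did not pass (adjusted p = 0.0867). The third chain, Col6a3, read 9.58, 9.69 and 9.69 in AZIP kidneys, against 9.35, 9.39 and 9.33 in FVB control kidneys. Its rise in AZIP kidneys was 0.30 ± 0.066 (adjusted p = 0.0402). Its PpargΔ/Δ arrays, at 9.29, 9.50 and 9.35, overlapped with the control arrays, at 9.10, 9.18 and 9.29, and 0.19 ± 0.066 did not pass (adjusted p = 0.132).

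The remaining non-fibrillar collagens did not pass in either line. Col15a1 and Col18a1, collagens of the basement membrane zone, were at 0.27 and 0.10 in PpargΔ/Δ and at 0.29 and 0.24 in AZIP kidneys. Col14a1, a fibril-associated relative of Col12a1, was at -0.08 in PpargΔ/Δ and -0.19 in AZIP kidneys, with a 95% interval of -0.28 to 0.12 in PpargΔ/Δ kidneys. Col8a1, a short-chain collagen of vessel walls, lay below the controls on every mutant array, at 8.18, 8.61 and 8.63 in PpargΔ/Δ kidneys, against 8.92, 8.66 and 8.74 in control kidneys (-0.30 ± 0.12, adjusted p = 0.187). Col8a1 in the AZIP comparison read 8.66, 8.66 and 8.38 in AZIP kidneys, against 8.83, 8.73 and 8.69 in FVB control kidneys (-0.18 ± 0.12, adjusted p = 0.512). Col6a1 lost the PpargΔ/Δ call without PpargΔ/Δ 2 or 3 or control 1 or 2 (limma adjusted p at most 0.0811). Col6a2 lost the PpargΔ/Δ call without control 1 (limma adjusted p = 0.0504). Col12a1 lost the AZIP call without AZIP 2 or 3 or FVB control 1, 2 or 3 (limma adjusted p at most 0.0756). Col6a2 lost the AZIP call without PpargΔ/Δ 2, control 1, 2 or 3, AZIP 2 or 3 or FVB control 1, 2 or 3 (limma adjusted p at most 0.154). Col6a3 lost the AZIP call without PpargΔ/Δ 3, control 2, AZIP 2 or 3 or FVB control 1, 2 or 3 (limma adjusted p at most 0.145). Col6a1 reached the threshold in AZIP kidneys without PpargΔ/Δ 1 or AZIP 1 (limma adjusted p down to 0.0257). Col18a1 reached the threshold in AZIP kidneys without AZIP 1 (limma adjusted p = 0.0229). Col12a1 kept it in PpargΔ/Δ kidneys with each of the 12 arrays left out (limma adjusted p up to 0.0213).

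**Figure D4:**
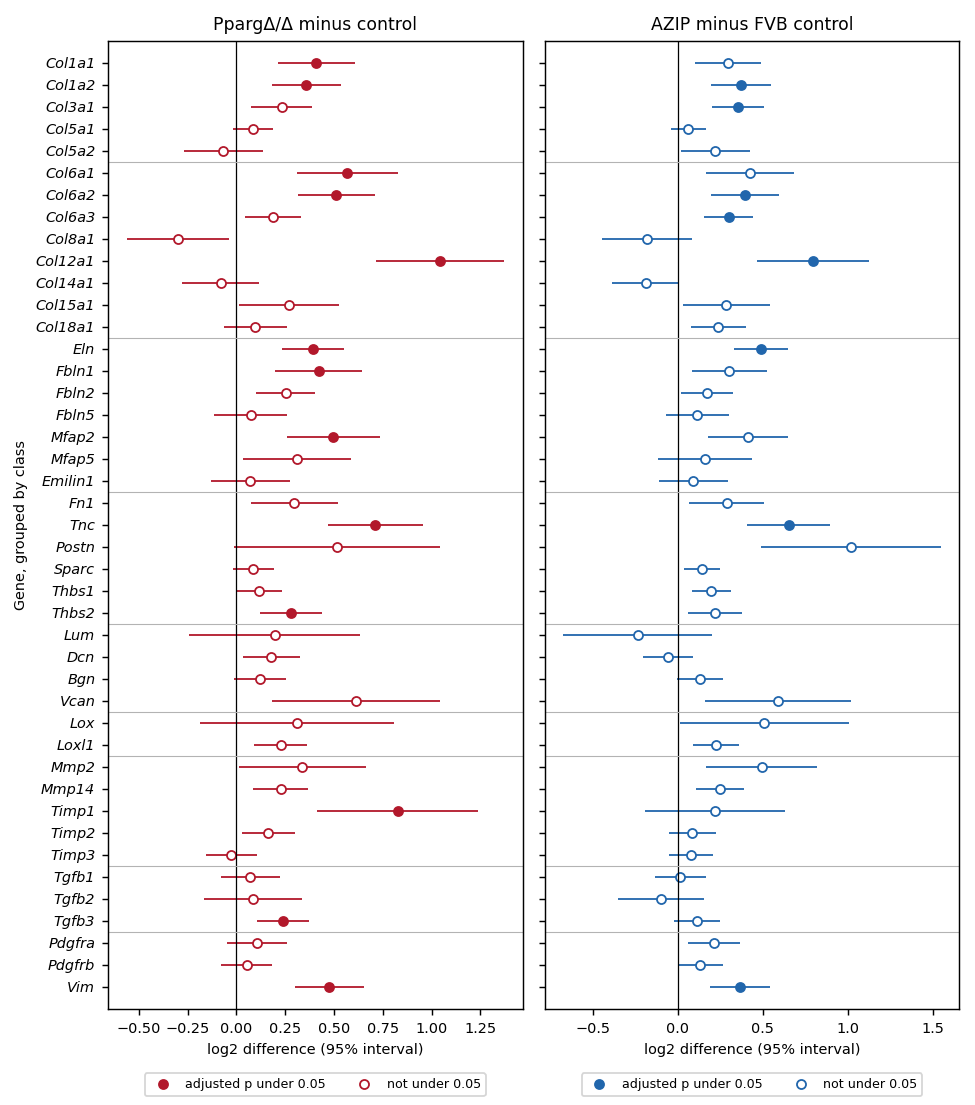
Points are log2 differences of the 43 matrix genes, PpargΔ/Δ minus control on the left and AZIP minus FVB control on the right, with 95% intervals from limma; filled points have an adjusted p under 0.05 and grey lines part the classes. Most points of both panels lie right of 0, 13 filled on the left and 8 on the right.

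Elastic fibre genes were above 0 in all 7 measured cases in both lines, and 3 rose in PpargΔ/Δ and 1 in AZIP kidneys. Eln, the elastin core, read 8.67, 8.88 and 8.89 in PpargΔ/Δ kidneys, against 8.37, 8.54 and 8.35 in control kidneys. It rose by 0.39 ± 0.073 (adjusted p = 0.0126). In AZIP kidneys Eln had the smallest adjusted p of the 43 genes. It read 8.94, 9.05 and 8.95 in AZIP kidneys, against 8.44, 8.45 and 8.58 in FVB control kidneys, and rose by 0.49 ± 0.073 (adjusted p = 0.00973), 1.4-fold. Mfap2, a microfibril protein, read 9.14, 9.39 and 9.05 in PpargΔ/Δ kidneys, against 8.64, 8.72 and 8.73 in control kidneys. The rise was 0.50 ± 0.11 (adjusted p = 0.0239). In the AZIP comparison it read 8.69, 9.11 and 8.85 in AZIP kidneys, against 8.33, 8.57 and 8.52 in FVB control kidneys, with no overlap, and 0.41 ± 0.11 did not pass (adjusted p = 0.0722). Fbln1, a fibulin bound to elastic fibres and basement membranes, read 8.88, 8.74 and 8.76 in PpargΔ/Δ kidneys, against 8.37, 8.32 and 8.43 in control kidneys. This was a rise of 0.42 ± 0.10 (adjusted p = 0.036). Fbln1 in the AZIP comparison read 8.85, 9.19 and 8.69 in AZIP kidneys, against 8.66, 8.64 and 8.53 in FVB control kidneys, and its difference was 0.30 ± 0.10 (adjusted p = 0.148). Fbln2, Mfap5, Fbln5 and Emilin1 were at 0.25, 0.31, 0.073 and 0.072 in PpargΔ/Δ kidneys and at 0.17, 0.16, 0.11 and 0.091 in AZIP kidneys, none of which passed. Eln lost the PpargΔ/Δ call without control 1 (limma adjusted p = 0.058). Mfap2 lost the PpargΔ/Δ call without PpargΔ/Δ 2 or control 1, 2 or 3 (limma adjusted p at most 0.0894). Fbln1 lost the PpargΔ/Δ call without PpargΔ/Δ 1, 2 or 3, control 1, 2 or 3 or FVB control 2 (limma adjusted p at most 0.111). Eln lost the AZIP call without FVB control 1 (limma adjusted p = 0.0553). Fbln2 reached the threshold in PpargΔ/Δ kidneys without PpargΔ/Δ 3 (limma adjusted p = 0.033). Mfap5 reached the threshold in PpargΔ/Δ kidneys without AZIP 2 (limma adjusted p = 0.0377). Fbln2 also passed in PpargΔ/Δ kidneys with genes under percentile 25 of mean expression left out (0.0411), with a variance trend (0.048) and with array weights (0.0434) (limma adjusted p). Mfap5 also passed in PpargΔ/Δ kidneys with only the arrays compared (0.0298) (limma adjusted p). Mfap2 also passed in AZIP kidneys with a variance trend (0.0435) (limma adjusted p). Mfap2 reached the threshold in AZIP kidneys without AZIP 1 (limma adjusted p = 0.0352).

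Among adhesive and matricellular glycoproteins, Tnc and Thbs2 rose in PpargΔ/Δ kidneys and Tnc in AZIP kidneys. Tnc, the tenascin that is expressed in growing and healing tissue, read 8.56, 8.88 and 8.91 in PpargΔ/Δ kidneys, against 7.97, 8.15 and 8.10 in control kidneys, and its difference was 0.71 ± 0.11 (adjusted p = 0.00551). In the AZIP comparison it read 8.55, 8.93 and 8.75 in AZIP kidneys, against 8.0, 8.23 and 8.04 in FVB control kidneys. It rose by 0.65 ± 0.11 (adjusted p = 0.0152). Tnc lost the AZIP call without AZIP 2 or FVB control 1 (limma adjusted p at most 0.077), and kept the other with each array left out (limma adjusted p up to 0.0303). Postn, periostin, had the largest AZIP difference of the 43 genes without passing. It read 8.46, 9.39 and 8.91 in AZIP kidneys, against 7.90, 7.76 and 8.05 in FVB control kidneys, all AZIP arrays above all FVB control arrays, with a difference of 1.02 ± 0.24 (adjusted p = 0.0521), 2.02-fold. The spread within groups was wide, and in the mixed-strain comparison it read 8.90, 8.92 and 9.17 in PpargΔ/Δ kidneys, against 9.03, 8.32 and 8.08 in control kidneys, where control 1 lay among the PpargΔ/Δ arrays (0.52 ± 0.24, adjusted p = 0.259). Postn reached the threshold in AZIP kidneys without control 1 or 3 or AZIP 1 (limma adjusted p down to 0.0229). Postn also passed in AZIP kidneys with quantile normalization again (0.0474), with genes under percentile 25 of mean expression left out (0.0385), with a variance trend (0.028) and with array weights (0.0356) (limma adjusted p). Thbs2, a thrombospondin that limits fibril assembly and vessel growth, read 8.11, 8.25 and 8.27 in PpargΔ/Δ kidneys, against 7.92, 7.97 and 7.90 in control kidneys. The rise was 0.28 ± 0.073 (adjusted p = 0.048). In AZIP kidneys it was at 0.22 ± 0.073 (adjusted p = 0.151). Thbs2 lost its call with quantile normalization again (0.06), with equal array medians (0.0589), with only the arrays compared (0.0529) and without PpargΔ/Δ 2 or 3, control 1, 2 or 3, AZIP 2 or FVB control 1, 2 or 3 (limma adjusted p at most 0.144). Fn1, fibronectin, was at 0.30 and 0.29 with no overlap in either line, Thbs1, an activator of latent TGF-beta, at 0.12 and 0.20, and Sparc, a collagen-binding protein, at 0.087 and 0.14 in PpargΔ/Δ and AZIP kidneys, and none of these passed.  Thbs1 also passed in AZIP kidneys with genes under percentile 25 of mean expression left out (0.0498) and with a variance trend (0.0331) (limma adjusted p).

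Of the 4 proteoglycans 0 passed by limma in either line, with 2 at an unadjusted p under 0.05 in PpargΔ/Δ and 1 in AZIP kidneys. Vcan, the large hyaluronan-binding versican, had the smallest p of the class in both. It read 7.49, 8.07 and 7.58 in PpargΔ/Δ kidneys, against 7.02, 7.30 and 6.99 in control kidneys. Mutant minus control was 0.61 ± 0.20 (adjusted p = 0.0963). Vcan in the AZIP comparison read 7.71, 7.96 and 7.86 in AZIP kidneys, against 7.34, 7.63 and 6.79 in FVB control kidneys. The difference was 0.59 ± 0.20 (adjusted p = 0.145), with no overlap in either line. Vcan reached the threshold in PpargΔ/Δ kidneys without FVB control 3 (limma adjusted p = 0.0457). The small leucine-rich proteoglycans that coat collagen fibrils differed less: Dcn was at 0.18 in PpargΔ/Δ and -0.059 in AZIP kidneys, Bgn at 0.12 in PpargΔ/Δ and 0.13 in AZIP kidneys, and Lum at 0.20 in PpargΔ/Δ and -0.24 in AZIP kidneys. For Bgn the 95% interval was -0.013 to 0.26 in PpargΔ/Δ and -0.0027 to 0.27 in AZIP kidneys. The class median was 0.19 in PpargΔ/Δ and 0.036 in AZIP kidneys.

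Lysyl oxidases crosslink collagen and elastin. Loxl1, which acts on elastin, read 9.13, 9.06 and 9.10 in PpargΔ/Δ kidneys, against 8.79, 8.86 and 8.96 in control kidneys. That is a difference of 0.23 ± 0.062 (adjusted p = 0.0557). Loxl1 in the AZIP comparison read 8.96, 9.16 and 9.09 in AZIP kidneys, against 8.91, 8.80 and 8.83 in FVB control kidneys (0.22 ± 0.062, adjusted p = 0.0858). The mutant arrays lay above the controls in both lines and neither difference passed. Lox itself varied widely, at 8.95, 9.52 and 9.89 in PpargΔ/Δ kidneys, against 9.18, 9.39 and 8.86 in control kidneys (0.31 ± 0.23, adjusted p = 0.494), where the groups overlapped. The AZIP arrays of Lox, at 10.12, 9.79 and 9.56, stood above the FVB control arrays, at 9.01, 9.41 and 9.51 (0.51 ± 0.23, adjusted p = 0.293). By limma 0 of the 2 measured members passed in either line, though 1 in PpargΔ/Δ and 2 in AZIP kidneys had an unadjusted p under 0.05. The probe set that Loxl2 shares with Gm21451 was at 0.28 ± 0.11 in PpargΔ/Δ and 0.32 ± 0.11 in AZIP kidneys (limma adjusted p = 0.235 and 0.239 over all probe sets). Loxl1 reached the threshold in PpargΔ/Δ kidneys without AZIP 1 (limma adjusted p = 0.0414). Loxl1 also passed in PpargΔ/Δ kidneys with genes under percentile 25 of mean expression left out (0.0375) and with a variance trend (0.0363) (limma adjusted p). Loxl1 reached the threshold in AZIP kidneys without AZIP 1 (limma adjusted p = 0.0416).

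Timp1, a secreted inhibitor of metalloproteinases that is induced in injured kidney, passed in PpargΔ/Δ kidneys, the only 1 of the 5 proteases and inhibitors to pass in either comparison. It read 7.30, 6.95 and 7.34 in PpargΔ/Δ kidneys, against 6.30, 6.43 and 6.39 in control kidneys. This was a rise of 0.83 ± 0.19 (adjusted p = 0.03), 1.77-fold. In the AZIP comparison it read 6.47, 7.32 and 6.48 in AZIP kidneys, against 6.56, 6.63 and 6.41 in FVB control kidneys. AZIP 2 was high, the other 2 AZIP arrays lay among the FVB controls, and the difference was 0.22 ± 0.19 (adjusted p = 0.639). Without AZIP 2 it was -0.064. The 2 effects on Timp1 differed by 0.61 ± 0.27, at an unadjusted p = 0.0428 and an adjusted p = 0.849, so the difference between the lines did not pass. Mmp14, the membrane-bound collagenase that activates Mmp2, was higher on every mutant array than on every control array, at 8.32, 8.45 and 8.52 in PpargΔ/Δ kidneys, against 8.27, 8.12 and 8.21 in control kidneys (0.23 ± 0.065, adjusted p = 0.0652). Mmp14 in the AZIP comparison read 8.32, 8.36 and 8.31 in AZIP kidneys, against 8.15, 7.98 and 8.10 in FVB control kidneys (0.25 ± 0.065, adjusted p = 0.0685). Mmp2, a gelatinase, was at 0.34 ± 0.15 (adjusted p = 0.225) in PpargΔ/Δ and 0.49 ± 0.15 (adjusted p = 0.111) in AZIP kidneys. Timp2 and Timp3, inhibitors present in resting tissue, were at 0.16 and -0.026 in PpargΔ/Δ and at 0.086 and 0.078 in AZIP kidneys. Timp1 lost the PpargΔ/Δ call without PpargΔ/Δ 1 or 3 or control 1, 2 or 3 (limma adjusted p at most 0.102). Mmp14 reached the threshold in PpargΔ/Δ kidneys without PpargΔ/Δ 1 (limma adjusted p = 0.0309). Mmp14 also passed in PpargΔ/Δ kidneys with genes under percentile 25 of mean expression left out (0.0447) and with array weights (0.0323) (limma adjusted p). Mmp14 reached the threshold in AZIP kidneys without PpargΔ/Δ 1 (limma adjusted p = 0.0455). Mmp2 reached the threshold in AZIP kidneys without PpargΔ/Δ 2 (limma adjusted p = 0.0493). Mmp14 also passed in AZIP kidneys with genes under percentile 25 of mean expression left out (0.0458), with a variance trend (0.0497) and with array weights (0.0408) (limma adjusted p). Mmp2 also passed in AZIP kidneys with only the arrays compared (0.0339) (limma adjusted p).

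The TGF-beta ligands differed little. Tgfb3 read 7.03, 7.21 and 7.16 in PpargΔ/Δ kidneys, against 6.91, 6.90 and 6.88 in control kidneys. The groups did not overlap, and the rise was 0.24 ± 0.061 (adjusted p = 0.0462). Tgfb3 in the AZIP comparison read 7.05, 7.19 and 7.25 in AZIP kidneys, against 7.02, 7.05 and 7.08 in FVB control kidneys (0.11 ± 0.061, adjusted p = 0.4). Tgfb3 lost its call with quantile normalization again (0.0592), with equal array medians (0.062), with only the arrays compared (0.0854), with a variance trend (0.0524) and without PpargΔ/Δ 2 or 3, control 1, 2 or 3, AZIP 2 or FVB control 1, 2 or 3 (limma adjusted p at most 0.153). Tgfb1, the isoform most studied in renal scarring, read 8.43, 8.54 and 8.43 in PpargΔ/Δ kidneys, against 8.40, 8.43 and 8.37 in control kidneys (0.072 ± 0.068, adjusted p = 0.611). Tgfb1 in the AZIP comparison read 8.25, 8.52 and 8.43 in AZIP kidneys, against 8.36, 8.47 and 8.33 in FVB control kidneys (0.014 ± 0.068, adjusted p = 0.953). Its 95% intervals were -0.077 to 0.22 in PpargΔ/Δ and -0.14 to 0.16 in AZIP kidneys, and the sign of the AZIP difference turned in several alternatives, among them equal array medians. Tgfb2, the remaining isoform, was at 0.086 in PpargΔ/Δ and -0.10 in AZIP kidneys. A list of TGF-beta signalling held 19 measured genes, among them receptors, latent binding proteins, Smads, integrins and targets. Of these, 0 rose and 1 fell in PpargΔ/Δ kidneys, with a median of 0.057. At an unadjusted p under 0.05, 2 lay above and 1 below the controls. The gene that fell was the inhibitory Smad7, by 0.31 ± 0.07 on the log2 scale (adjusted p = 0.0284). Smad7 lost the call with only the arrays compared (0.0535) and without PpargΔ/Δ 1 or 3 or control 1 or 3 (limma adjusted p at most 0.104). In AZIP kidneys 0 of the 19 passed by limma, with a median of 0.083. At an unadjusted p under 0.05, 4 lay above and 2 below the FVB controls. The targets Tgfbi and Ccn2, chosen after their values were seen, were at 0.36 and 0.11 in PpargΔ/Δ and at 0.32 and 0.33 in AZIP kidneys. None of these passed (limma adjusted p from 0.226 to 0.703). The integrin gene Itgb6, chosen likewise, lay below the controls without overlap in both lines. It was at -0.19 in PpargΔ/Δ and -0.30 in AZIP kidneys (limma adjusted p = 0.296 and 0.13). Of the 19 genes 7 lay below 0 in PpargΔ/Δ and 6 in AZIP kidneys, and the rest above.

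Vim, the intermediate filament vimentin of mesenchymal cells and of some other cells, read 11.75, 11.63 and 11.68 in PpargΔ/Δ kidneys, against 11.15, 11.21 and 11.26 in control kidneys. It rose by 0.48 ± 0.081 (adjusted p = 0.0083), 1.39-fold. Vim in the AZIP comparison read 11.52, 11.88 and 11.55 in AZIP kidneys, against 11.26, 11.29 and 11.29 in FVB control kidneys. The rise was 0.37 ± 0.081 (adjusted p = 0.0392). The receptors that mark fibroblasts and pericytes did not pass in either line: Pdgfra was at 0.10 ± 0.07 (adjusted p = 0.454) in PpargΔ/Δ and 0.21 ± 0.07 (adjusted p = 0.143) in AZIP kidneys, and Pdgfrb at 0.053 ± 0.06 (adjusted p = 0.68) in PpargΔ/Δ and 0.13 ± 0.06 (adjusted p = 0.302) in AZIP kidneys. The 95% intervals of Pdgfrb were -0.078 to 0.18 in PpargΔ/Δ and 0.00077 to 0.26 in AZIP kidneys. Of 16 further fibroblast and pericyte genes 1 rose in each line and 0 fell, with medians of 0.051 in PpargΔ/Δ and 0.061 in AZIP kidneys. That gene was the pericyte marker Rgs5, at 0.43 ± 0.07 (adjusted p = 0.00693) in PpargΔ/Δ and 0.38 ± 0.07 (adjusted p = 0.0195) in AZIP kidneys. Vim lost the AZIP call without PpargΔ/Δ 2 or 3, control 1, 2 or 3, AZIP 2 or 3 or FVB control 1, 2 or 3 (limma adjusted p at most 0.145). Rgs5 lost the AZIP call without AZIP 2 or 3 or FVB control 1 or 2 (limma adjusted p at most 0.0904).

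No matrix gene passed the test of the difference between the 2 effects. By limma 0 of 43 genes had an adjusted p under 0.05 there, against 0.0201% of all genes. An unadjusted p under 0.05 was found for 2 members, Timp1 and Dcn, against 5.82% of all genes, so the members stood near the background. The Dcn effects differed by 0.24 ± 0.095 (unadjusted p = 0.0279, adjusted p = 0.835). The genes that passed in PpargΔ/Δ kidneys alone, such as Col1a1, Col6a1 and Mfap2, are therefore not shown to differ between the lines, nor are Col3a1 and Col6a3, which passed in AZIP kidneys alone. Intervals were wide enough to leave room for differences: for Col12a1 the difference was 0.25, with a 95% interval of -0.22 to 0.71, and for Postn -0.50, with -1.25 to 0.25.

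No gene of the collagen synthesis list rose by limma in either line. Of 17 measured enzymes and chaperones of collagen synthesis 0 rose and 1 fell in each line, with medians of 0.025 in PpargΔ/Δ and 0.042 in AZIP kidneys. At an unadjusted p under 0.05, 3 lay above and 2 below in PpargΔ/Δ kidneys, and 3 above and 1 below in AZIP kidneys. The gene that fell was Pcolce2, an enhancer of procollagen C-proteinase. It read 6.53, 6.47 and 6.69 in PpargΔ/Δ kidneys, against 7.78, 7.24 and 7.17 in control kidneys. The difference was -0.83 ± 0.17 (adjusted p = 0.0184). Pcolce2 in the AZIP comparison read 7.25, 7.14 and 6.66 in AZIP kidneys, against 8.02, 7.86 and 7.75 in FVB control kidneys. That is a difference of -0.86 ± 0.17 (adjusted p = 0.0264). The related Pcolce, picked once its values were known, was at 0.29 ± 0.10 (adjusted p = 0.113) in PpargΔ/Δ and 0.15 ± 0.10 (adjusted p = 0.48) in AZIP kidneys. The collagen chaperone Serpinh1, picked likewise, was at -0.033 in PpargΔ/Δ and 0.028 in AZIP kidneys. Of 33 other interstitial matrix genes 3 rose and 2 fell in PpargΔ/Δ and 2 rose and 0 fell in AZIP kidneys. Their medians were 0.017 in PpargΔ/Δ and 0.10 in AZIP kidneys. At an unadjusted p under 0.05, 9 lay above and 4 below in PpargΔ/Δ kidneys. The AZIP changes at such a p were evenly split, with 5 above and 5 below. Smoc2, a calcium-binding matricellular protein, rose by 0.55 ± 0.10 (adjusted p = 0.014) in PpargΔ/Δ and 0.58 ± 0.10 (adjusted p = 0.0195) in AZIP kidneys. Aspn, the collagen-binding asporin, rose by 0.52 ± 0.10 (adjusted p = 0.0156) in PpargΔ/Δ and 0.46 ± 0.10 (adjusted p = 0.0373) in AZIP kidneys. Spon1, named after its values were seen, rose by 0.46 ± 0.11 (adjusted p = 0.037), and Col27a1 and the gelatinase Mmp9 were at -0.38 ± 0.083 (adjusted p = 0.0246) and -0.41 ± 0.10 (adjusted p = 0.0331) in PpargΔ/Δ kidneys. With single arrays left out the PpargΔ/Δ call was lost by Pcolce2 (without PpargΔ/Δ 2 or control 1), Smoc2 (without control 1) and Aspn (without PpargΔ/Δ 2 or 3 or control 1), with limma adjusted p up to 0.0697, and by Spon1 (without PpargΔ/Δ 2 or 3, control 1 or 3 or FVB control 1, 2 or 3), Col27a1 (without PpargΔ/Δ 2 or 3 or control 1, 2 or 3) and Mmp9 (without PpargΔ/Δ 1 or 3 or control 1 or 3), with limma adjusted p up to 0.132. The AZIP call was lost by Pcolce2 (without AZIP 2 or 3 or FVB control 1, 2 or 3), Smoc2 (without FVB control 1 or 2) and Aspn (without PpargΔ/Δ 2 or 3, control 3, AZIP 1 or 2 or FVB control 1 or 2), with limma adjusted p up to 0.159. With only the arrays compared, Spon1 (0.0841) and Mmp9 (0.078) lost the PpargΔ/Δ call, and Pcolce2 (0.0528), Smoc2 (0.0863) and Aspn (0.0954) the AZIP call (limma adjusted p). Col27a1 reached the threshold in AZIP kidneys without AZIP 3 (limma adjusted p = 0.028).

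**Figure D5:**
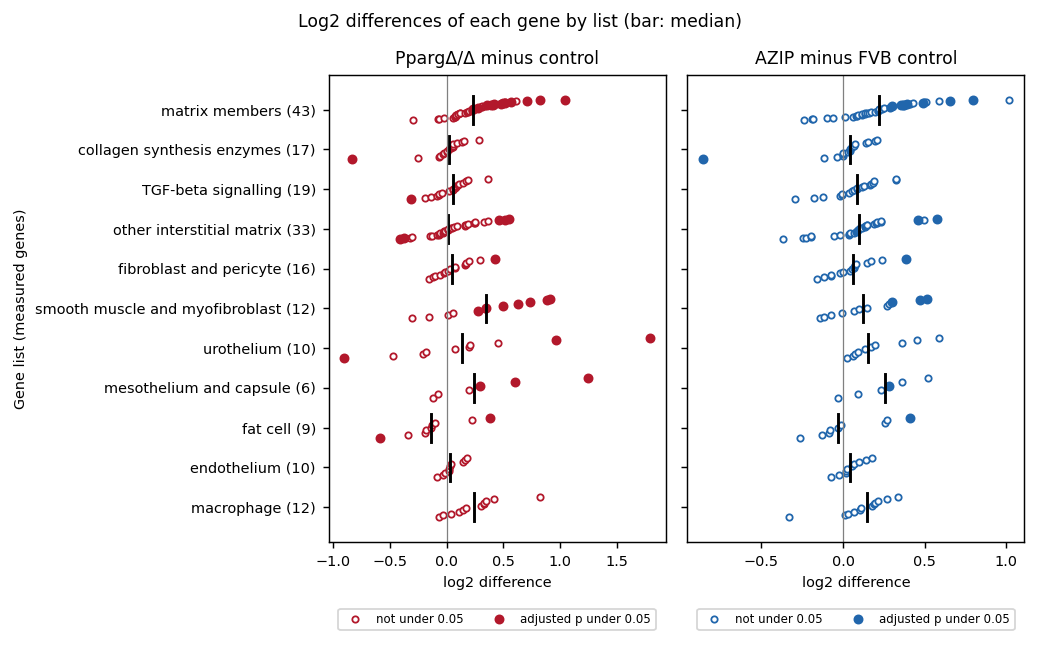
Points are log2 differences of single genes in each list, PpargΔ/Δ minus control on the left and AZIP minus FVB control on the right; filled points have an adjusted p under 0.05 and bars give the list median. The medians of the matrix genes, 0.23 and 0.22, lie right of those of the collagen synthesis, TGF-beta signalling, other interstitial matrix and fibroblast lists. Those of the other interstitial matrix list are 0.017 and 0.10. In PpargΔ/Δ kidneys the smooth muscle (0.34), mesothelium and capsule (0.24) and macrophage (0.24) medians are as large or larger. So is the mesothelium and capsule median (0.26) in AZIP kidneys.

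Markers of other cells moved with the matrix genes in part. Of 12 smooth muscle and myofibroblast genes 7 rose in PpargΔ/Δ and 3 in AZIP kidneys, and 0 fell. They did not all move up, with 2 of the 12 below 0 in PpargΔ/Δ and 4 in AZIP kidneys. Des, named after its values were seen, was the lowest in PpargΔ/Δ kidneys, at -0.30. At an unadjusted p under 0.05, 8 lay above and 1 below in PpargΔ/Δ kidneys, and 5 above and 0 below in AZIP kidneys. The median difference of the 12 genes was 0.34 in PpargΔ/Δ and 0.12 in AZIP kidneys. Their summed linear signals were 7861 to 8573 in PpargΔ/Δ kidneys and 6122 to 6238 in control kidneys. The AZIP comparison gave sums of 6858 to 8158 in AZIP kidneys and 6088 to 6283 in FVB control kidneys. Actg2, the enteric smooth muscle actin, was at 0.91 ± 0.079 (adjusted p = 0.000305), Acta2, alpha smooth muscle actin, at 0.88 ± 0.11 (adjusted p = 0.00185), and Cnn1 and Tagln, both contractile proteins, at 0.74 ± 0.13 (adjusted p = 0.0083) and 0.63 ± 0.10 (adjusted p = 0.00579) in PpargΔ/Δ kidneys. In AZIP kidneys Acta2, Tagln and Myocd rose by 0.52, 0.47 and 0.30. Of 10 urothelial genes 2 rose and 1 fell in PpargΔ/Δ kidneys, the basal keratins Krt5 (1.80 ± 0.14, adjusted p = 0.00018) and Krt14 (0.97 ± 0.14, adjusted p = 0.00343) against the uroplakin Upk1b (-0.91 ± 0.15, adjusted p = 0.0083), with sums of 1978 to 2319 in PpargΔ/Δ kidneys and 1767 to 1785 in control kidneys. In AZIP kidneys 0 urothelial genes passed by limma, 3 at an unadjusted p under 0.05, with sums of 1835 to 2229 in AZIP kidneys and 1615 to 1961 in FVB control kidneys. Of 6 genes listed for mesothelium and capsule 3 rose in PpargΔ/Δ kidneys, Krt19, Wt1 and Msln (1.25, 0.29 and 0.60), and Wt1 (0.28) in AZIP kidneys. Whole-kidney RNA does not show which cells gave these readings, and Upk3b stands in the urothelial list as well. The values of this list are therefore not a measure of mesothelium or capsule. The list did not move as 1, with 2 of the 6 below 0 in PpargΔ/Δ and 1 in AZIP kidneys. Lrrn4, named after its values were seen, was the lowest in both, at -0.12 and -0.030. The list's median was 0.24 in PpargΔ/Δ and 0.26 in AZIP kidneys. Their sums were 1311 to 1448 in PpargΔ/Δ kidneys and 947 to 986 in control kidneys, and 971 to 1200 in AZIP kidneys and 870 to 938 in FVB control kidneys. Single arrays left out ended the PpargΔ/Δ calls of Tpm2 (without PpargΔ/Δ 2 or 3 or control 1, 2 or 3), Tpm1 (without PpargΔ/Δ 2 or 3, control 1, 2 or 3, AZIP 2 or FVB control 1, 2 or 3) and Myocd (without PpargΔ/Δ 1 or 2 or control 1 or 3), with limma adjusted p up to 0.156 (these 3 named after their values were seen), and of Msln (without PpargΔ/Δ 2 or 3 or control 1, 2 or 3) and Wt1 (without control 1 or 2), with limma adjusted p up to 0.0787. They ended the AZIP calls of Acta2 (without control 2 or 3, AZIP 3 or FVB control 1, 2 or 3), Tagln (without control 2 or 3, AZIP 2 or 3 or FVB control 1, 2 or 3), Myocd (without control 3, AZIP 2 or 3 or FVB control 1, 2 or 3) and Wt1 (without AZIP 2 or 3 or FVB control 1, 2 or 3), with limma adjusted p up to 0.153. Those AZIP calls were also lost with only the arrays compared (limma adjusted p from 0.0709 to 0.12), as was the PpargΔ/Δ call of Myocd (0.0864). Tpm1 lost the PpargΔ/Δ call with only the arrays compared (0.104), with quantile normalization again (0.0587) and with equal array medians (0.0559). The part of these cell types in the matrix result was not tested.

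Lists of macrophage, blood vessel, mesangial, fat and nephron progenitor genes were read in the same way. Of 12 macrophage genes 0 passed by limma in either line, with 2 in PpargΔ/Δ and 3 in AZIP kidneys at an unadjusted p under 0.05. Their medians were 0.24 in PpargΔ/Δ and 0.14 in AZIP kidneys. Their sums were 3664 to 5721 in PpargΔ/Δ kidneys and 3288 to 3896 in control kidneys, and 2484 to 3719 in AZIP kidneys and 2673 to 2902 in FVB control kidneys. Of 10 endothelial genes 0 passed by limma in either line, with 2 in PpargΔ/Δ and 1 in AZIP kidneys at an unadjusted p under 0.05. Their medians were 0.027 in PpargΔ/Δ and 0.04 in AZIP kidneys. Of 4 mesangial genes 0 passed by limma in either line, with 1 in PpargΔ/Δ and 2 in AZIP kidneys at an unadjusted p under 0.05. The fat-cell hormone gene Adipoq, picked once its values were known, read 4.28, 4.30 and 4.38 in PpargΔ/Δ kidneys, against 4.60, 4.33 and 4.43 in control kidneys, and 4.47, 4.61 and 4.28 in AZIP kidneys, against 4.47, 4.51 and 4.42 in FVB control kidneys. Its mean lay at percentile 8.7 of all genes. Of 9 fat-cell genes Aoc3 rose (0.38 ± 0.093, adjusted p = 0.0374) and Lipe fell (-0.59 ± 0.086, adjusted p = 0.00368) in PpargΔ/Δ kidneys, and Aoc3 rose in AZIP kidneys (0.41 ± 0.093, adjusted p = 0.0431). The median of the 9 was -0.13 in PpargΔ/Δ and -0.029 in AZIP kidneys, with 7 and 6 genes below 0. Their sums were 3373 to 3462 in PpargΔ/Δ kidneys and 3485 to 3717 in control kidneys, and 3838 to 4623 in AZIP kidneys and 3534 to 3793 in FVB control kidneys. Of 9 nephron progenitor genes Lhx1 fell in PpargΔ/Δ kidneys (-0.41 ± 0.088, adjusted p = 0.022) and 0 passed by limma in AZIP kidneys, 1 at an unadjusted p under 0.05. Of the 9 nephron genes measured as a check of the tissue, Aqp2 alone passed, in PpargΔ/Δ kidneys (0.48 ± 0.10, adjusted p = 0.022). Single arrays left out ended the PpargΔ/Δ calls of Aoc3 (without PpargΔ/Δ 2 or 3, control 1, 2 or 3 or FVB control 1, 2 or 3), Lhx1 (without PpargΔ/Δ 2 or 3 or control 1 or 2) and Aqp2 (without PpargΔ/Δ 2 or 3 or control 1 or 3), with limma adjusted p up to 0.119, and the AZIP call of Aoc3 (without PpargΔ/Δ 3, control 1, 2 or 3, AZIP 2 or 3 or FVB control 1, 2 or 3), with limma adjusted p up to 0.145. With only the arrays compared, Aoc3 (0.0807) and Lhx1 (0.0662) lost the PpargΔ/Δ call and Aoc3 the AZIP call (0.0689), which equal array medians also ended (0.0515). The part of these cells in the matrix result was not tested either.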

How the data were processed

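Total RNA of whole kidneys was hybridised to 12 Affymetrix arrays. The log2 values as deposited came from RMA; per the submitters' processing notes, the program was Affymetrix Expression Console. RMA subtracts a background, puts all arrays on 1 distribution and gives a value per probe set. Its settings, the software versions and the annotation build were not given in the sources used here. Of 35556 probe sets 21789 carried 1 symbol, 1621 several and 12146 none in the platform table, and 21698 symbols were brought up to date through Entrez numbers in a RefSeq gene table (GRCm38.p6). The probe set with the highest mean stood for each of 19938 genes.

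A model with a mean for each of the 4 groups was fitted by limma 3.58.1 under R 4.3.3, on 8 residual and 3.71 prior degrees of freedom, with contrasts for each line and for the difference of the 2 effects, and Benjamini-Hochberg adjustment over all genes. No gene list was tested. The 45 genes, their 9 classes and the 13 other lists were chosen with earlier results of these data known. Members could all be named, and other genes were named where they passed, at most 4 per list and comparison, with exceptions marked. Alternatives were quantile normalization again, equal array medians, a filter at percentile 25 of mean expression (0 of the 43 members lay under it), averaged probe sets of a gene, only the arrays compared, a variance trend, weighted arrays, a block for the replicate number, an adjusted p under 0.10 and each array left out. Same-numbered arrays of mutant and control correlated, in their deviations from group means, at 0.00863 to 0.184 and at -0.103 to -0.00987 in the 2 comparisons. Over all pairs of groups 9 of 18 such correlations were over 0.1, so the numbers were not taken to pair the arrays. On simulated data for the PpargΔ/Δ comparison over 19938 genes, 62% of 50 genes changed by 0.3 were found, 88% at 0.5 and 98% at 1, with 6 false calls. There the noise was drawn separately for each gene, all changes were upward and 19738 genes were unchanged. Noise shared by the genes of an array was left out, so these rates need not hold for the real arrays. The small number of arrays limits the precision, and pooling makes the spread smaller than that between single mice. Motifs were searched in the 250 bases before each RefSeq promoter start.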

Additional observations from a re-analysis of the deposited data

Results flagged for a closer look

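By limma's test of the difference itself, the effects of the 2 lines differed in 4 of 19938 genes, of which 2 are in the lists of other cell types and 0 among the matrix genes. Actg2 read 6.92, 7.09 and 7.14 in PpargΔ/Δ, 6.24, 6.10 and 6.08 in control, 6.13, 6.26 and 6.38 in AZIP and 6.38, 6.45 and 6.28 in FVB control kidneys, and the 2 effects differed by 1.03 ± 0.11 (adjusted p = 0.0206). Krt5 read 8.55, 8.32 and 8.95 in PpargΔ/Δ, 6.86, 6.67 and 6.91 in control, 6.80, 7.05 and 6.88 in AZIP and 6.70, 6.91 and 6.61 in FVB control kidneys, and the 2 effects differed by 1.63 ± 0.20 (adjusted p = 0.0215). Actg2 lost the threshold without AZIP 1 or 2 or FVB control 2 (limma adjusted p up to 0.0625), and Krt5 without control 1 or 2, AZIP 1, 2 or 3 or FVB control 2 (limma adjusted p up to 0.0915). Groups of 3 arrays were not searched for outlying arrays.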

How the results depend on the processing

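With each array left out, between 3 and 14 matrix genes passed in PpargΔ/Δ and between 0 and 13 in AZIP kidneys. In AZIP kidneys, where 8 passed, the count was 5 with equal array medians, 3 with only the arrays compared, 13 with the replicate block and 14 at an adjusted p under 0.10. The replicate block gave 14 in PpargΔ/Δ kidneys, where 13 passed, and 12 of the 13 were among them (Thbs2 was not, 0.0551), with Fbln2 (0.0251) and Vcan (0.0288) added. In AZIP kidneys the block added Col6a1 (0.021), Mfap2 (0.0218), Mmp2 (0.0464), Pdgfra (0.0473) and Vcan (0.0447). Under it Mmp9 (0.051) and the differences between the 2 effects of Actg2 (0.0691) and Krt5 (0.114) did not pass (limma adjusted p). The shared number was not taken to pair the arrays. Over all genes the AZIP count was 485, against 162 with only the arrays compared, 785 with a variance trend and 1035 at 0.10, and the PpargΔ/Δ count 1055, against 607 with only the arrays compared and 1938 at 0.10. The count for the difference of the 2 effects stayed at 0 of the members under all alternatives run. The direction turned only for genes that had not passed: with single arrays left out the PpargΔ/Δ differences ranged over Col5a2 -0.15 to 0.040, Emilin1 -0.0040 to 0.16, Fbln5 -2.8e-05 to 0.13, Tgfb2 -0.024 to 0.17, Timp3 -0.063 to 0.036, and the AZIP differences over Krt14 -0.034 to 0.13, Mfap5 -0.020 to 0.27, Tgfb1 -0.047 to 0.089, Timp1 -0.064 to 0.36. For Tgfb1 in AZIP kidneys it was -0.0086 with equal array medians and -0.012 with array weights. Of 2854 single-gene values under an alternative, 2531 kept their direction and side of the threshold, 251 lost the threshold and 58 gained it. Leaving out arrays removes residual degrees of freedom, and the cause of the other changes was not tested. Signal over background is not known for these arrays, so low probe sets could not be set apart.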
